A study of Mus musculus with 190 samples.

Results

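The genes described here are 36 genes of mitosis, the division of the nucleus and the cell, measured by RNA-seq in whole blood. They were chosen by gene symbol for their known roles in mitosis. All 36 were found among the 55414 genes of the count table, and all 36 passed the filter on low counts that left 18192 genes to test. The 190 libraries came from male wild-type NC/Nga mice, an inbred strain that develops dermatitis resembling atopic dermatitis in conventional housing. In each of 9 conventional cohorts, 10 libraries were made on a first day (day 2, 5, 9, 12, 16, 19, 23, 26 and 30 in cohorts 1 to 9) and 10 on a second day, which was day 44 in cohorts 1, 3, 5, 7 and 9 and day 40 in cohorts 2, 4, 6 and 8. A cohort in specific-pathogen-free (SPF) housing gave 5 libraries on day 16 and 5 on day 44, all with a dermatitis score of 0. The labels give no treatment and no age, and do not say from when the days count. Mean scores of the conventional cohorts were 0 up to day 9, 1.65 on day 30, and between 1.55 and 2.80 in the second sampling.

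Mitosis is driven by cyclin-dependent kinase activity, which rises as A- and B-type cyclins accumulate and ends when the anaphase-promoting complex marks those cyclins for destruction. Kinetochore proteins tie chromosomes to spindle fibres, motor proteins build the spindle, condensins and topoisomerase compact and untangle the chromosomes, and a last set of proteins cuts the cell apart. Most leukocytes in circulation do not divide. Erythroid and myeloid precursors do, mainly in bone marrow and, in mice, in the spleen. Young red cells that reach the blood still hold RNA made before they lost their nucleus.

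The promoters of many mitosis genes share a short element, the cell cycle genes homology region (CHR), and CCAAT boxes, which the DREAM and NF-Y complexes are known to bind. The members were matched by symbol to RefSeq promoters of build GRCm38.p6, which run from 250 bases before to 50 after a gene's start, and 31 of 36 had an entry. Aurkb, Kif20a, Ccna2, Smc4 and Tpx2 had none. CHR was searched as TTTGAA or TTCGAA and the CCAAT box as CCAAT, each on both strands. A CHR and a CCAAT match can share at most an end base. A CHR match stood in 26 of the 31 promoters (83.9%) and in 21.7% of the 27025 genes of the table. Within 50 bases of the start it stood in 23 of 31 (74.2%) against 6.12% of all genes. CCAAT stood in 25 of 31 (80.6%) against 41.1%. Ccnb1, Birc5, Cenpe, Nuf2 and Nusap1 had no CHR match in this window. A match describes the letters and is not evidence of binding. The stretches from position -120 to 10 around the start (130 bases each) are shown for 3 genes with large differences in the comparisons (Ube2c, Ccnb2 and Mki67), for 2 given in every group (Top2a and Cdk1) and for Cdc20, which did not follow them between samplings. Capitals mark CHR and CCAAT matches on either strand, and each sequence is written 5′ to 3′ on the gene's strand. Ube2c is at chr2:164769809-164769938 (plus), Ccnb2 at chr9:70421545-70421674 (minus), Mki67 at chr7:135716370-135716499 (minus), Top2a at chr11:99024180-99024309 (minus), Cdk1 at chr10:69352903-69353032 (minus) and Cdc20 at chr4:118437334-118437463 (minus).
Ube2c: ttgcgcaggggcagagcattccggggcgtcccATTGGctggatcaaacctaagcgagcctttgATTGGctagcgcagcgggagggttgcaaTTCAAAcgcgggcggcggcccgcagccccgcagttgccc
Ccnb2: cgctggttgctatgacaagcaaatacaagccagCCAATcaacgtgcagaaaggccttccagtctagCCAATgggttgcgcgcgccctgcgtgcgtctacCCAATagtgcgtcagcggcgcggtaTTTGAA
Mki67: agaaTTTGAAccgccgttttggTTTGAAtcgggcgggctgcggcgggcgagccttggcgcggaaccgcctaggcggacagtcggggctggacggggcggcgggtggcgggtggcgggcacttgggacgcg
Top2a: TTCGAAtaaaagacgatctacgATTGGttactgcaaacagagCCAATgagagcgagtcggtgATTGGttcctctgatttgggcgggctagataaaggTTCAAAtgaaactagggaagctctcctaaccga
Cdk1: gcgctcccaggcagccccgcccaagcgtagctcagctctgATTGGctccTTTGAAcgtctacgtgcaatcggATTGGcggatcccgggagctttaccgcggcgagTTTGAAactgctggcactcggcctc
Cdc20: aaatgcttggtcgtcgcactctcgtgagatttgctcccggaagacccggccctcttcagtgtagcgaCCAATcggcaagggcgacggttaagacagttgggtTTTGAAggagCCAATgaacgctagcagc
The stretch of Mki67 held 2 CHR matches and no CCAAT, that of Ccnb2 1 CHR match and 3 CCAAT boxes, and that of Top2a 2 and 3.

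Blood held RNA of all 36 genes, most of them at low levels. Levels between genes are compared on the deposited TPM scale, which divides by gene length. Ube2c, the ubiquitin-conjugating enzyme of the anaphase-promoting complex, had the highest median over the 190 libraries at 34.4 TPM. Nusap1, which bundles spindle microtubules, followed at 25.5 TPM, then the condensin subunit Smc4 at 16.8, Mki67 (the proliferation antigen Ki-67, which coats mitotic chromosomes) at 16.8, and the kinetochore protein Spc25 at 13.9 TPM. The polo kinase Plk1 was lowest at 0.021 TPM and was listed at 0 in 17 libraries. Of the 36 medians, 16 lay under 1 TPM, 15 between 1 and 10, and 5 at 10 or more. Members of one complex did not share a level, as Spc25 stood at 13.9 TPM and its partner Ndc80 at 0.569.

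Within a gene, libraries are compared in CPM (counts scaled to library size), corrected by TMM factors, which set most genes to no difference between libraries. Total counts per library ran from 21444129 to 71967298, of which 34652 to 288203 lay on the 36 genes. Their summed CPM ran from 791 to 17571 with a median of 1696, and Mki67 alone made up a median of 38.1% of the sum. Libraries also differed by cohort in composition. The median share of counts on globin genes was 3.58% in cohorts 1 to 4, 7.83% in cohorts 6 to 9 and 3.59% in SPF libraries, and mitochondrial rRNA shares were 6.92%, 15.4% and 7.38%. Cohort 5 changed between its days, from 3.72% globin and 10.1% mitochondrial rRNA on day 16 to 7.03% and 15.9% on day 44. Housing and first day were each set per cohort, so they cannot be told apart from a difference between cohorts. The TMM factors moved with the groups as well. Their median was 1.19 in first and 0.909 in second conventional libraries, and 1.18 and 1.62 in SPF libraries of days 16 and 44. Most comparisons were therefore repeated on library totals without TMM, a setting chosen after the data were seen, and both results are given. Not repeated were the tests of whether the change differed among cohorts, of any difference among first days, and between the score slopes of the samplings. Fits with precursor list means also use TMM only, and the totals result of day 16 is not reported here. In bulk blood, a change in the number of cells of a type and a change in RNA per cell cannot be told apart.

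Mki67 (ENSMUSG00000031004.9, chr7:135291513-135318090 in the files' build GRCm39) had medians between 389 and 711 CPM in the first samplings and spread more widely in the second. The lowest, median and highest CPM in cohort 1 were 359.8, 463 and 828 on day 2, and 370.1, 628 and 9338 on day 44. Cohort 2 gave 331, 449 and 601 on day 5, and 662, 1027 and 5122 on day 40. Cohort 3 gave 484, 591 and 817 on day 9, and 503, 1118 and 2075 on day 44. Cohort 2 was the only cohort in which the 2 samplings did not overlap. In cohort 4 the values were 301, 620.2 and 1043 on day 12, and 628, 1237 and 3945 on day 40. In cohort 5 they were 381, 552 and 1321 on day 16, and 398, 569 and 1914 on day 44. In cohort 6 they were 336, 389 and 752 on day 19, and 509.5, 840.5 and 1999 on day 40. The medians of cohort 5 lay close together, while those of cohorts 4 and 6 were well apart. For cohort 7 Mki67 was 450.1, 683 and 1148 on day 23, and 331, 918 and 5922 on day 44. For cohort 8 it was 318, 612 and 939 on day 26, and 478, 591 and 2259 on day 40. For cohort 9 it was 331, 711 and 1381 on day 30, and 359, 669.6 and 11631 on day 44. Cohorts 8 and 9 had slightly lower medians in the second sampling, although single libraries rose far above the rest. The SPF libraries gave 479, 427, 435, 522 and 482 CPM on day 16, and 414, 231, 344, 354 and 268 on day 44. The 2 SPF days did not overlap on this TMM scale, with day 44 the lower one, and this change was not tested. A larger TMM factor lowers the CPM, and the median SPF factor was 1.18 on day 16 and 1.62 on day 44. The SPF values without TMM are not given, so the separation may depend on the scaling.

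High values came from single libraries. Over 2000 CPM of Mki67 were reached by 16 libraries of 7 cohorts, all of the second conventional sampling and all with a score of 2 or more. The highest first-sampling library reached 1381 CPM. The within-cohort SD of log2 Mki67 was larger in the second sampling in 9 of 9 cohorts, and the same held for 9 members in all: Ccna2, Ccnb2, Cenpa, Cenpf, Mki67, Nusap1, Racgap1, Top2a and Ube2c. This spread was not tested.

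Ccna2, the A-type cyclin of S phase and early mitosis, had the same pattern at a lower level. Its median CPM in the first samplings of cohorts 1 to 9 was 32.2, 30.7, 41.2, 40.05, 37.9, 29.5, 56.9, 40.6 and 56.98. In the second samplings it was 63.2, 104.98, 119.1, 107.1, 45.5, 62.6, 90.5, 51.3 and 68.3. All 9 second medians were the higher ones, and the samplings did not overlap in cohort 2, where the highest value was 49.4 on day 5 and the lowest 63.2 on day 40. SPF libraries held 31.97, 34.1, 26.3, 38.01 and 31.6 CPM on day 16, and 26.6, 14.8, 18.6, 22.7 and 16.7 on day 44. On the same TMM scale the highest SPF library of day 44 and the lowest of day 16 overlapped by a small margin.

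Top2a (topoisomerase II alpha, which untangles sister chromosomes) differed less between samplings. Its median CPM in the first samplings of cohorts 1 to 9 was 70.1, 64.9, 78.4, 89.4, 75.3, 67.9, 88.2, 72.7 and 73.9. In the second samplings it was 75.8, 131.3, 95.04, 105.6, 70.98, 103.1, 98.7, 61.4 and 76.2, so that 7 of 9 medians were higher. First-sampling libraries ranged from 44.4 to 155.8 CPM and second-sampling libraries from 37.1 to 495, and the samplings overlapped in every cohort. SPF libraries held 62.1, 87.98, 53.7, 95.9 and 63.5 CPM on day 16, and 70.1, 41.98, 46.1, 68.7 and 51.02 on day 44.

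Cdk1, the kinase that drives entry into mitosis, had cohort medians between 1.26 and 2.82 CPM. Its medians were 2.77, 2.18, 2.37, 2.33, 2.05, 1.26, 2.47, 1.70 and 1.83 CPM in the first samplings of cohorts 1 to 9, and 2.11, 2.45, 2.39, 2.33, 1.87, 2.08, 2.58, 1.63 and 2.82 in the second. The median was higher in the second sampling in 5 of 9 cohorts. Libraries ranged from 0.777 to 4.49 CPM in the first and from 0.910 to 11.5 in the second sampling. SPF libraries held 1.15, 2.86, 1.53, 2.48 and 1.79 CPM on day 16, and 2.07, 0.999, 1.83, 1.86 and 1.28 on day 44.

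Ccnb1, the B-type cyclin that activates Cdk1, had first medians of 2.89, 2.50, 2.49, 3.12, 2.42, 1.85, 3.12, 2.29 and 2.28 CPM in cohorts 1 to 9, and second medians of 2.64, 3.57, 3.10, 2.94, 2.02, 2.40, 2.86, 1.72 and 2.24. Only 3 of 9 second medians were higher. The ranges were 1.09 to 4.84 CPM in the first and 0.891 to 12.7 in the second sampling, so the highest library stood further out in the second sampling. SPF values were 1.89, 3.11, 1.73, 3.12 and 2.03 CPM on day 16, and 1.91, 1.41, 1.36, 2.70 and 1.97 on day 44, which overlap.

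**Figure D1:**
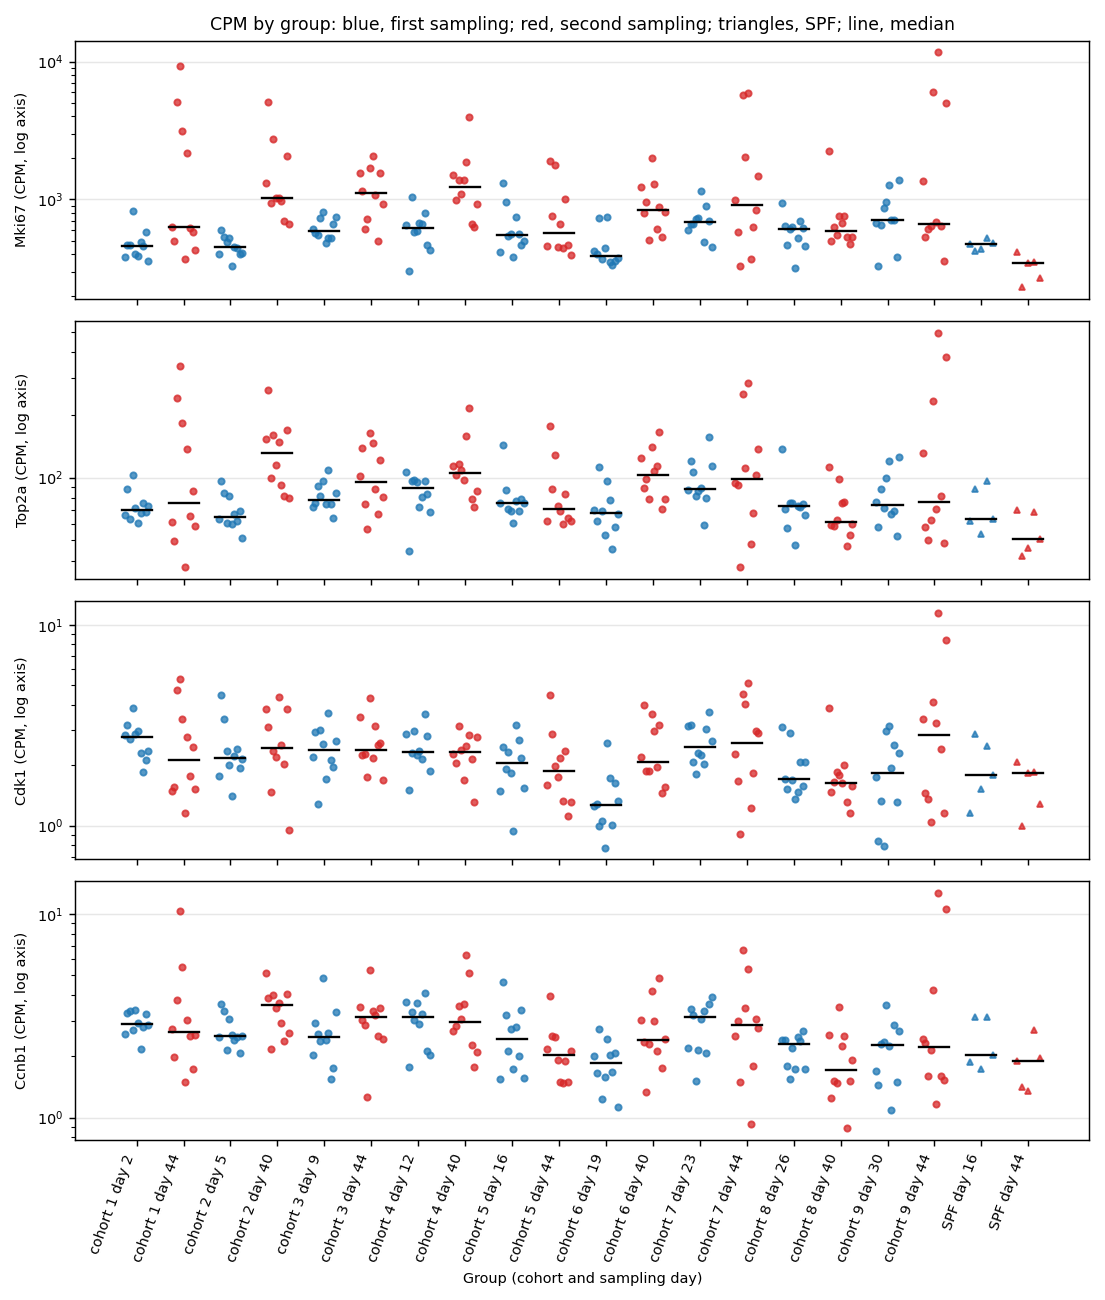
CPM (TMM-scaled, log axes) of Mki67, Top2a, Cdk1 and Ccnb1 in each library, by cohort and sampling day; blue points are first and red points second samplings, triangles are SPF libraries and lines are medians. Single second-sampling libraries of Mki67 reach up to 11631 CPM, while the medians of Cdk1 and Ccnb1 lie between 1.26 and 3.57.

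Across all conventional cohorts the second sampling held more RNA of 5 members on both scalings: Ccna2, Mki67, Ccnb2, Ube2c and Nusap1. On the TMM scale 29 of 36 members were called higher and 0 lower (edgeR quasi-likelihood test over 180 libraries with cohort as a covariate, Benjamini-Hochberg adjusted p under 0.05). Of all genes tested, 62.1% were called, 31.4% higher and 30.6% lower. The members' median log2 difference was 0.27 and that of all genes was -0.02. On library totals the median over all genes was -0.38, and 5 members were called higher and 27 lower, against 9.19% and 65.6% of all genes (74.8% in all). Relative to the all-gene median the members' median was higher by 0.29 with TMM and by 0.17 with totals, and 34 and 32 of 36 members lay above it. Among the 29 members that rose with TMM, 20 were lower on library totals and 4 (Aurka, Birc5, Plk1 and Top2a) were not called. Within cohorts 1 to 4 alone 26 members were higher and 1 lower with TMM, at 63.2% of all genes called, and within cohorts 6 to 9 alone 10 were higher and 0 lower, at 19.9%. The deposited TPM also carries no TMM factor, so it is not a check apart from library totals, and no test was run on it. Its median was higher in the second sampling for those 5 members alone. Mki67 went from 15.4 to 19.3 TPM, Ccna2 from 4.21 to 6.67, Ccnb2 from 1.47 to 1.70, Ube2c from 33.3 to 37.6 and Nusap1 from 23.7 to 27.8. Every p-value here measures the spread between single libraries, which may be technical in part. The labels number the libraries of a group and do not state whether a number is the same mouse on both days.

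Among kinases and cyclins all 10 members rose on the TMM scale. Ccna2 (ENSMUSG00000027715.10, chr3:36619014-36626299) ran from 18.7 to 137.8 CPM with a median of 39.5 in the first sampling, and from 19.5 to 1021 with a median of 82.3 in the second. The samplings overlap widely, yet the second median was higher in 9 of 9 cohorts, which held for no other member. Its log2 difference was 1.63 ± 0.16 (SE; adjusted p = 1.8e-18) with TMM and 0.95 with totals. Ccnb2, the other mitotic B-type cyclin, had medians of 7.50 and 10.9 CPM and a log2 difference of 1.15 ± 0.14 (0.48 with totals). The kinase Aurkb, of the complex that corrects chromosome attachment, showed the smallest difference of the group, 0.17 ± 0.07 (adjusted p = 0.0415). Cdk1 (0.20 ± 0.09) and Ccnb1 (0.23 ± 0.09) were also called higher with TMM, and all 3 of these turned lower with totals, to -0.32, -0.30 and -0.29. The 2 ubiquitin ligase members parted. Ube2c had medians of 88.8 and 130.6 CPM and a log2 difference of 0.96 ± 0.13 (0.32 with totals). Cdc20, the activator of the same complex, had medians of 0.949 and 0.746 CPM and a log2 difference of -0.08 ± 0.11 (adjusted p = 0.548), and was called lower with totals at -0.55.

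At the kinetochore 5 of 7 members were called higher with TMM. Birc5 (survivin, a partner of Aurkb) differed most, by 0.53 ± 0.10, and was not called with totals at -0.02. Cenpf, which links kinetochores to motor proteins, differed by 0.34 ± 0.07 and was lower with totals at -0.15. Spc25, of the complex that grips microtubules, was not called with TMM (-0.02 ± 0.07) and was lower with totals at -0.44. Of the spindle genes, 5 of 5 were called higher with TMM. Nusap1 (ENSMUSG00000027306.16, chr2:119448779-119481725) had medians of 239.9 and 353 CPM and rose by 0.87 ± 0.12, or 0.28 with totals. The chromokinesin Kif4 rose least, by 0.23 ± 0.07, and was lower with totals at -0.25.

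Of the cytokinesis genes 4 of 6 were called higher with TMM and all 6 lower with totals. Kif23, a motor of the central spindle, rose by 0.34 ± 0.05 with a higher second median in 8 of 9 cohorts, and stood at -0.10 with totals. Ect2, the exchange factor that starts the cleavage furrow, was not called with TMM at 0.05 ± 0.07. Among the chromosome genes 4 of 6 were called higher with TMM. Mki67 rose by 1.25 ± 0.14 (adjusted p = 1.9e-14), or 0.58 with totals. Top2a rose by 0.49 ± 0.09 with TMM and was not called with totals at -0.07, and the condensin subunit Smc4 was not called with TMM at 0.03 ± 0.06 and was lower with totals at -0.38.

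**Figure D2:**
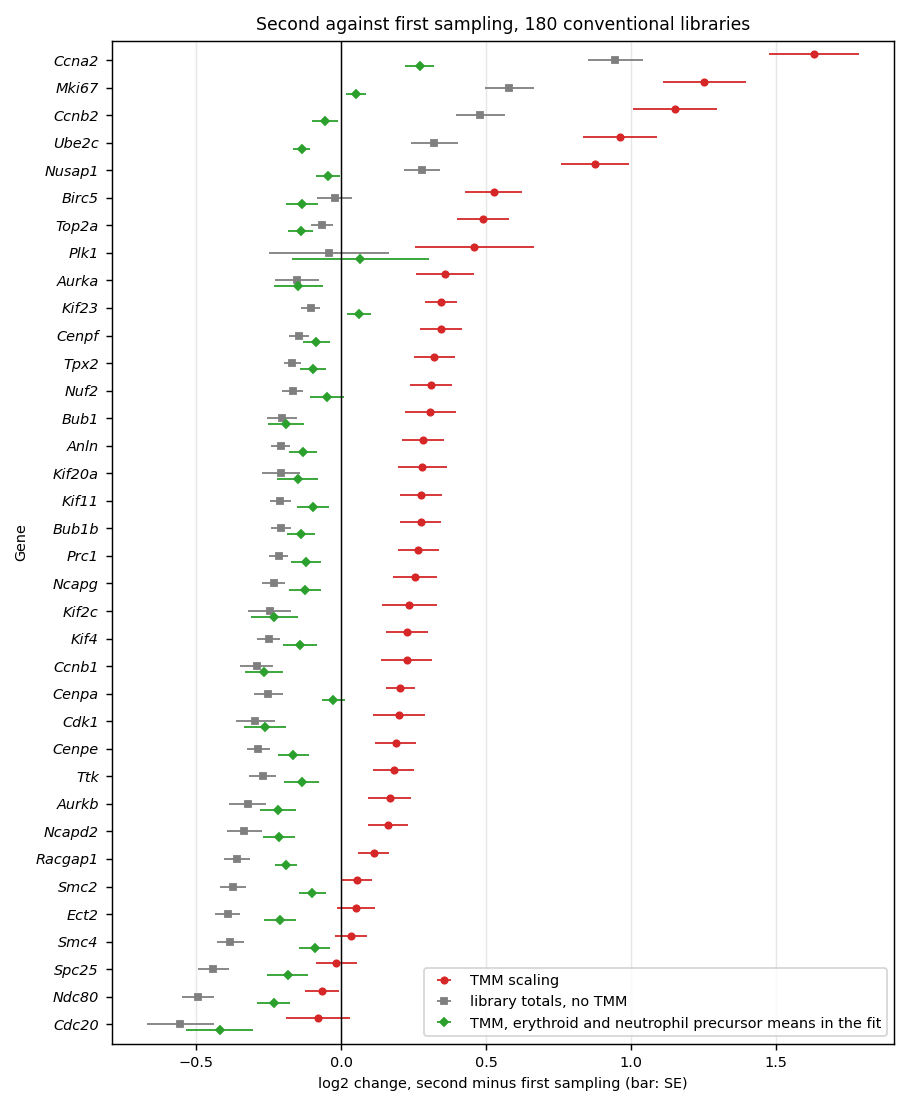
Log2 difference between second and first sampling (x axis; bars are SE) for the 36 genes over 180 conventional libraries: red circles with TMM, grey squares on library totals, green diamonds with TMM and both precursor list means in the model. With TMM 29 genes are called higher; on library totals 5 are higher (Ccna2, Mki67, Ccnb2, Ube2c and Nusap1) and 27 lower.

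Other blood cell lists moved between samplings too. On the TMM scale 22 of 22 erythroid precursor genes (median 1.18), 15 of 15 mature neutrophil genes (1.55), 8 of 8 neutrophil secondary granule genes (1.14) and 11 of 11 platelet genes (0.37) were called higher, and 10 of 10 B cell and 10 of 12 T cell genes lower. With totals 18 of 22 erythroid genes, 15 of 15 mature neutrophil genes and 7 of 8 secondary granule genes were called higher, and 10 of 10 B cell and 12 of 12 T cell genes lower. Of 11 platelet genes 1 was higher and 4 lower with totals. The part of the neutrophil, platelet and lymphocyte lists in the members' differences was not tested.

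The size of the change differed among cohorts for 8 members (interaction of cohort and sampling, adjusted p under 0.05), against 35.3% of all genes. They were Kif20a (adjusted p = 0.00821), Ccnb2 (0.0185), Kif23 (0.0199), Cdc20 (0.0243), Mki67 (0.0324), Aurkb (0.0364), Smc4 (0.0391) and Cdk1 (0.0445). For Mki67 the log2 ratio of mean CPM, second over first, was 2.25, 1.85, 0.92, 1.22, 0.37, 1.08, 1.42, 0.38 and 1.79 in cohorts 1 to 9, positive in all 9. For Ccnb2 it was 2.14, 1.58, 0.90, 1.49, 0.03, 0.90, 1.03, 0.41 and 1.93. Cohorts 5 and 8 had the smallest values of both genes. For Cdc20 it was -0.40, -0.71, -0.42, 0.01, -0.56, 0.72, 0.30, -0.13 and 0.68, lower in 5 cohorts and higher in 4. Kif20a, a kinesin of late mitosis, gave -0.02, 0.23, 0.50, 0.40, -0.32, 0.58, 0.22, -0.09 and 1.20, and was highest in cohort 9. The mean ratio of Cdk1 was 0.86 in cohort 6 and 1.01 in cohort 9, and between -0.09 and 0.14 in the other cohorts.

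Over the first samplings alone, 20 of 36 members differed among the 9 days, against 57% of all genes, with the smallest adjusted p for Ccna2 (1.6e-05), Kif20a (4.2e-05) and Cdc20 (0.00017). A linear trend with day was called for 14, of which 7 rose and 7 fell with TMM, against 26.5% and 25.8% of all genes (52.3% in all). With TMM the members thus changed over the first days no more often than genes in general. Per 10 days Ccna2 rose by 0.30 ± 0.06 on the log2 scale, Mki67 by 0.19 ± 0.05 and Nusap1 by 0.18 ± 0.06. Cenpe (a kinetochore motor), Cenpf, Kif23 and Smc4 rose by 0.11 to 0.12. Cdc20 fell by 0.41 ± 0.07, from a median of 1.15 CPM on day 2 and 1.35 on day 5 to 0.674 on day 26 and 0.648 on day 30. Kif20a fell by 0.26 ± 0.05, from 2.18 to 1.18 CPM between days 2 and 30, and Ncapd2 (a condensin subunit), Cdk1, Aurkb, Ccnb1 and Racgap1 (of the central spindle) fell by 0.18, 0.16, 0.15, 0.14 and 0.07. With TMM over all cohorts together, Ccna2 and Mki67 thus rose over the first days while Cdk1 and Ccnb1 fell. The trend of Ccnb1 was 0.017 within cohorts 1 to 4 alone and 0.077 within cohorts 6 to 9 alone. That of Cdk1 was 0.25 within cohorts 6 to 9 alone, and that of Mki67 was -0.0043 on library totals. None of these 4 values was called. On library totals Ccna2 was the 1 member called higher (0.09) and 33 were lower, against 7.94% and 56% of all genes; the 7 that fell with TMM fell there too, and Cenpe, Cenpf, Kif23 and Smc4 turned lower. Each day is 1 cohort, and the first days up to 16 have lower median globin and mitochondrial rRNA shares than the later ones. Within cohorts 6 to 9 alone edgeR called a trend for 0 members (3 at an unadjusted p under 0.05), at 2.53% of all genes called, and within cohorts 1 to 4 alone for 6, at 23.3%. Beside the trend, 15 of 15 mature neutrophil genes rose on both scalings, and 9 of 10 B cell genes fell with TMM and 10 with totals. Their part in it was not tested. Of 22 erythroid genes 8 rose with TMM, while 9 fell with totals.

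On day 16 no member was called between the conventional cohort 5 and the SPF mice by edgeR (0 of 36, 0 at an unadjusted p under 0.05, 0 by DESeq2), against 0.473% of all genes. Mki67 differed by 0.46 ± 0.34, Top2a by 0.15 ± 0.22, Cdk1 by 0.07 ± 0.28 and Ccnb1 by 0.11 ± 0.25 (log2, conventional minus SPF). The most positive value was that of Cdc20, 0.51 ± 0.29, and the most negative that of Plk1, -0.76 ± 0.78. With 10 and 5 libraries these errors leave differences of this size undetectable.

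On day 44, 4 of 36 members were higher in the 50 conventional than in the 5 SPF libraries with TMM. Of all genes 10.7% were called higher and 9.04% lower (19.7% in all). The members were thus called higher about as often as genes in general. Ccna2 stood at 14.8 to 26.6 CPM in the SPF libraries, and its lowest conventional library of day 44 at 19.5, so 3 SPF libraries lay under every conventional one. Its log2 difference was 3.11 ± 0.91 (adjusted p = 0.0129). Mki67 differed by 2.47 ± 0.82 (adjusted p = 0.0262), with conventional libraries from 331 to 11631 CPM and SPF libraries from 231 to 414. Nusap1 was at 181.8, 90.03, 119.5, 161.9 and 104.8 CPM in SPF libraries and differed by 1.89 ± 0.59, and Kif23 was at 39.8, 29.1, 32.1, 33.7 and 28.8 CPM and differed by 0.69 ± 0.24. The groups overlapped for each of these genes. Ube2c (1.85 ± 0.69, adjusted p = 0.0501), Ccnb2 (2.04 ± 0.82), Birc5 (1.32 ± 0.51) and Top2a (1.11 ± 0.46) missed the threshold, as did Cdk1 (0.76 ± 0.39) and Ccnb1 (0.74 ± 0.40). Cdc20 was at -0.16 ± 0.37 and Ndc80, of the microtubule-gripping complex, at 0.05 ± 0.23. At an unadjusted p under 0.05 there were 19 members, and DESeq2 called 11. Both counts are given without the share of all genes and cannot be set against it. With TMM the members' median was 0.68; on library totals it was -0.25 against -0.72 for all genes, with Ccna2 (1.79), Mki67 (1.16) and Nusap1 (0.74) higher and 11 members lower, against 2.27% and 41.2% of all genes. Without SPF replicate 2, 3 or 5 only Ccna2 stayed called, and without SPF replicate 4 Ccna2 and Nusap1 did. With TMM erythroid precursor genes were higher for 14 of 22 (median 2.21), mature neutrophil genes for 15 of 15, and B cell genes lower for 10 of 10. With totals these counts were 9, 14 and 10. The part of the neutrophil and B cell lists was not tested.

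In the second sampling 20 members rose with the dermatitis score of the library with TMM, and 5 of them on both scalings. Scores ran from 0 to 4, with 7, 5, 11, 27, 39 and 1 libraries at scores 0, 0.5, 1, 2, 3 and 4. Median Mki67 was 449, 535, 662, 805, 1309 and 1683 CPM at these scores. The libraries ranged from 370.1 to 615 at score 0, from 359 to 943 at 0.5, from 371 to 1021 at 1, from 464 to 11631 at 2 and from 331 to 9338 at 3. Every score overlapped the next, and the highest libraries all had scores of 2 or 3. Ccna2 had medians of 31.4, 42.8, 47.6, 70.3, 145.9 and 244 CPM, and Ube2c 73.3, 81.6, 80.2, 131.05, 169.1 and 288. Top2a had medians of 73.1, 63.9, 70.4, 79.1, 111.7 and 162.7 CPM. Cdk1 was at 1.68, 1.31, 2.18, 2.16, 2.49 and 4.32, and Ccnb1 at 2.13, 1.54, 2.36, 2.51, 3.00 and 5.34. The medians at scores 0 and 0.5 kept no common order over these genes, and the median of each was highest at score 4, which is 1 library, followed by score 3.

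**Figure D3:**
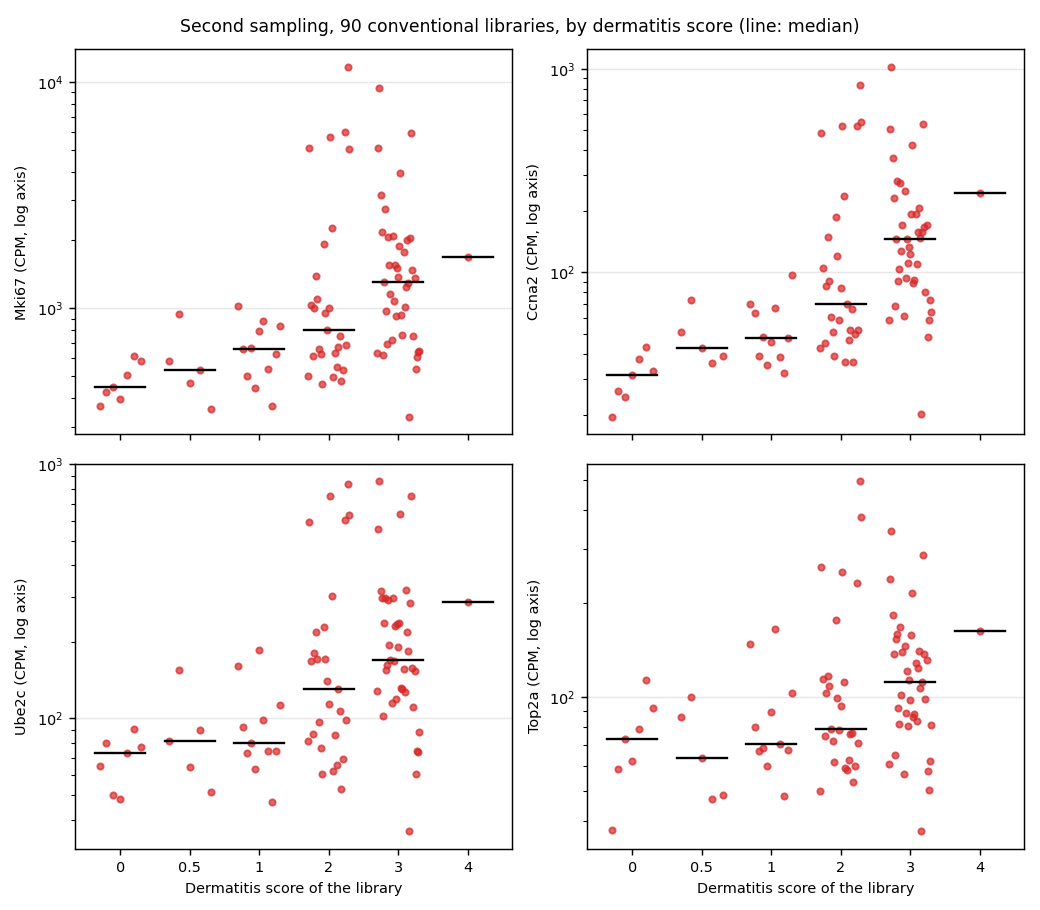
CPM (TMM-scaled, log axes) of Mki67, Ccna2, Ube2c and Top2a in the 90 second-sampling conventional libraries by dermatitis score; each point is a library and lines are medians. Median Mki67 goes from 449 CPM at score 0 to 1309 at score 3, and slopes of these genes except Top2a were positive and called on both scalings.

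Per score unit, with cohort as a covariate, 20 of 36 members rose and 0 fell with TMM, against 18.9% and 17.7% of all genes. Ccna2 rose by 0.83 ± 0.14 on the log2 scale, Mki67 by 0.60 ± 0.14 (adjusted p = 3.0e-04), Ccnb2 by 0.57 ± 0.14, Ube2c by 0.55 ± 0.12 and Nusap1 by 0.47 ± 0.10. Those 5 were also the members called higher on library totals, at 0.55, 0.33, 0.30, 0.29 and 0.22, against 4.56% of all genes. The other 15 that rose with TMM were not called with totals, and 13 further members were lower there, against 51.2% of all genes. Birc5 rose by 0.32 ± 0.09, Top2a by 0.27 ± 0.09, Ccnb1 by 0.23 ± 0.08, Cdk1 by 0.21 ± 0.08, Kif20a by 0.20 ± 0.07 and Kif23 by 0.15 ± 0.04 with TMM. By role, 9 of 10 kinases and cyclins rose, 3 of 5 spindle genes, 4 of 6 cytokinesis genes, 2 of 6 chromosome genes and 1 of 7 kinetochore genes. Among the 16 members not called were Plk1 (0.12 ± 0.16), Cdc20 (0.15 ± 0.09), Cenpf (0.15 ± 0.07), Spc25 (-0.01 ± 0.06), Kif4 (0.13 ± 0.06), Ect2 (0.05 ± 0.05) and the condensin subunit Smc2 (-0.01 ± 0.04). With TMM erythroid precursor genes rose for 22 of 22 (median 0.64) and mature neutrophil genes for 15 of 15 (0.40), while 10 of 10 B cell and 11 of 12 T cell genes fell. With totals 21 erythroid and 7 mature neutrophil genes rose, and 10 B cell and 12 T cell genes fell. The part of the neutrophil and lymphocyte lists was not tested. Within cohorts 1 to 4 alone 21 members were called, at 29.7% of all genes, and within cohorts 6 to 9 alone edgeR called 0 (1 at an unadjusted p under 0.05), at 0.0% of all genes. With globin and mitochondrial rRNA shares as covariates 3 members were called, at 16.8% of all genes.

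In the first sampling of days 12 to 30, with 60 libraries and mostly low scores, 2 of 36 members rose with the score and 0 fell with TMM, against 6.19% and 3.86% of all genes. They were Ccna2 (0.41 ± 0.10, adjusted p = 0.00734) and Kif23 (0.19 ± 0.06, adjusted p = 0.0408). Median Mki67 was 522, 695, 624, 707 and 863 CPM at scores 0, 0.5, 1, 2 and 3 (28, 9, 12, 10 and 1 libraries), with a slope of 0.25 ± 0.11 (adjusted p = 0.138). Top2a (0.12 ± 0.09), Ccnb1 (0.07 ± 0.10) and Cdk1 (-0.14 ± 0.11) were not called. With TMM 15 of 15 mature neutrophil genes rose with this score, 9 of 10 B cell genes fell and 0 of 22 erythroid precursor genes were called, with 4 of them at an unadjusted p under 0.05. With totals no gene of these 3 lists was called, and their part was not tested. On library totals edgeR called 0 members (4 at an unadjusted p under 0.05), at 0.033% of all genes. The difference between the slopes of the samplings was called for 0 members and 0.0% of all genes by edgeR, with 3 members at an unadjusted p under 0.05. It was 0.42 ± 0.24 for Ccna2, 0.36 ± 0.23 for Mki67 and 0.35 ± 0.16 for Cdk1.

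Whether the members follow erythroid or neutrophil precursors was measured within groups. The erythroid list holds 22 genes of erythroid transcription, haem synthesis and the red cell membrane, among them Alas2 (the first enzyme of haem synthesis, median 34126 CPM). The neutrophil precursor list holds 8 genes of early granules and their regulators. Only 5 of the 8 passed the filter, and these were near 0: the transcription factor Gfi1 had a median of 0.557 CPM and Mpo (myeloperoxidase) 0.106, and Elane (neutrophil elastase) had a median of 0 TPM. Each gene was fitted on both list means together, with the 20 groups as a factor over 190 libraries. A slope is in log2 units per within-group SD of the list mean, which was 0.753 log2 units for the erythroid and 0.453 for the neutrophil precursor list. Genes and list means share each library's scaling.

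With TMM the erythroid slope was positive and called for 36 of 36 members, against 25.2% of all genes higher and 33.6% lower (58.8% in all). Ccna2 (0.88 ± 0.02), Ccnb2 (0.80 ± 0.02), Mki67 (0.80 ± 0.01), Ube2c (0.78 ± 0.01) and Nusap1 (0.68 ± 0.02) had the steepest slopes. The erythroid genes themselves, which make up the mean, had a median slope of 0.82. Birc5 (0.51 ± 0.02), Top2a (0.47 ± 0.02), Cdk1 (0.41 ± 0.03) and Ccnb1 (0.41 ± 0.03) lay in between. The lowest of each role were Ttk (a checkpoint kinase) at 0.29, Cdc20 at 0.32, Spc25 at 0.14, Kif11 (a spindle motor) at 0.30, Kif23 and Ect2 at 0.24, and Smc4 at 0.11. The members' median was 0.33 and that of all genes -0.04. On library totals 14 members were called higher and 12 lower, against 9.53% and 60.7% of all genes, with a median of 0.01 against -0.18, and 34 of 36 lay above the all-gene median. Those 14 were Ube2c (0.50), Ccna2 (0.49), Mki67 (0.47), Ccnb2 (0.44), Nusap1 (0.32), Birc5 (0.19), Cdc20 (0.18), the mitotic kinases Aurka (0.11) and Aurkb (0.10), Cdk1 (0.11), Top2a (0.11), Ncapd2 (0.11), Ccnb1 (0.08) and Kif2c (0.08), a kinesin that shortens microtubules. Spc25 (-0.24), Smc4 (-0.23), Smc2 (-0.17) and Ndc80 (-0.13) turned lowest. With TMM the slope was called for 36 members in the second sampling alone (55.6% of all genes called), 31 in the first alone (29.1%), 35 in cohorts 1 to 4 alone (46.1%) and 35 in cohorts 6 to 9 alone (45.4%).

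**Figure D4:**
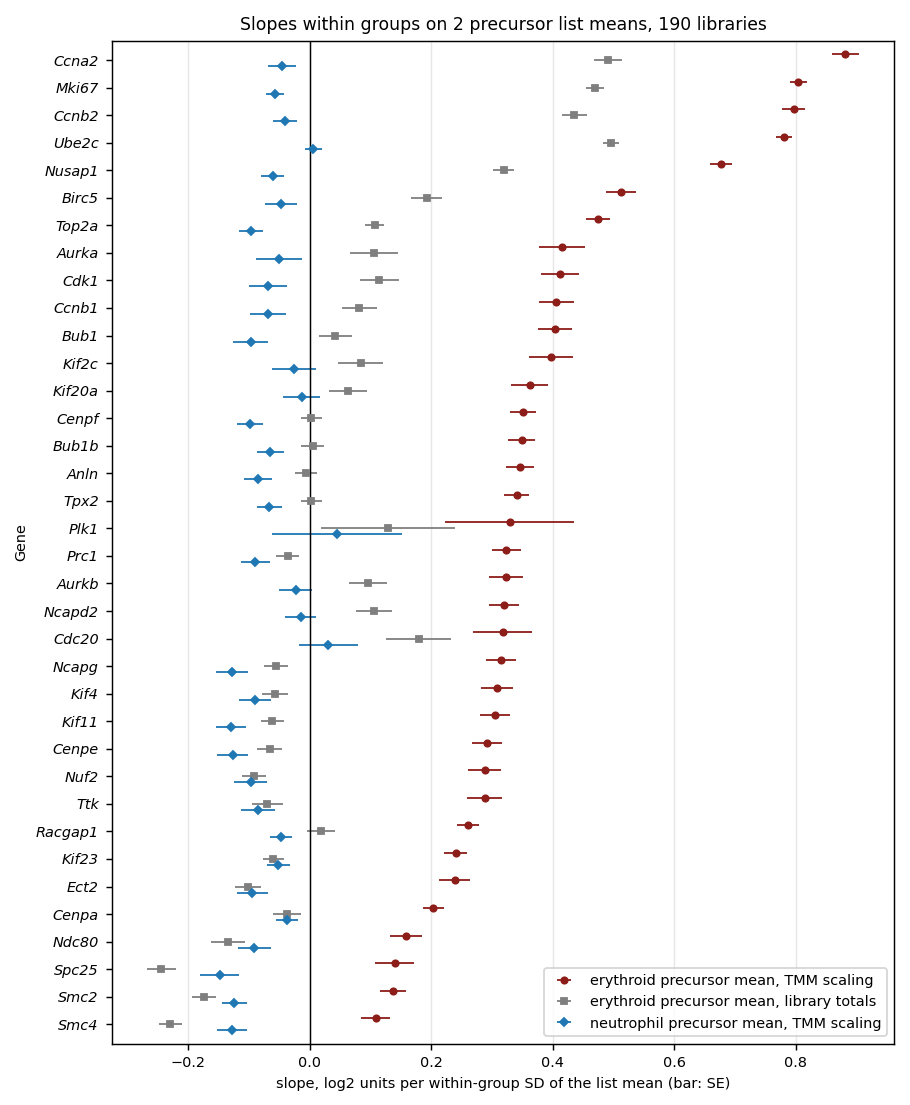
Slopes of the 36 genes within groups (x axis, log2 units per within-group SD of the list mean; bars are SE) on the erythroid precursor mean with TMM (dark red circles), on the same mean with library totals (grey squares) and on the neutrophil precursor mean with TMM (blue diamonds). All 36 erythroid slopes are above 0 with TMM, while on library totals 14 are called higher and 12 lower; no neutrophil precursor slope is called higher with TMM.

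The same libraries were highest in both measures. The 10 libraries with the most Mki67 were the 10 with the highest erythroid precursor mean. The library of cohort 9 on day 44 with 11631 CPM of Mki67 (replicate 7, score 2) had an erythroid mean of 8.89 log2 CPM, and that of cohort 1 on day 44 with 9338 CPM (replicate 4, score 3) had 8.92. The median erythroid mean in the second sampling was 5.06, 5.13, 5.38, 5.83, 6.41 and 6.59 log2 CPM at scores 0, 0.5, 1, 2, 3 and 4, in the same order as Mki67.

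**Figure D5:**
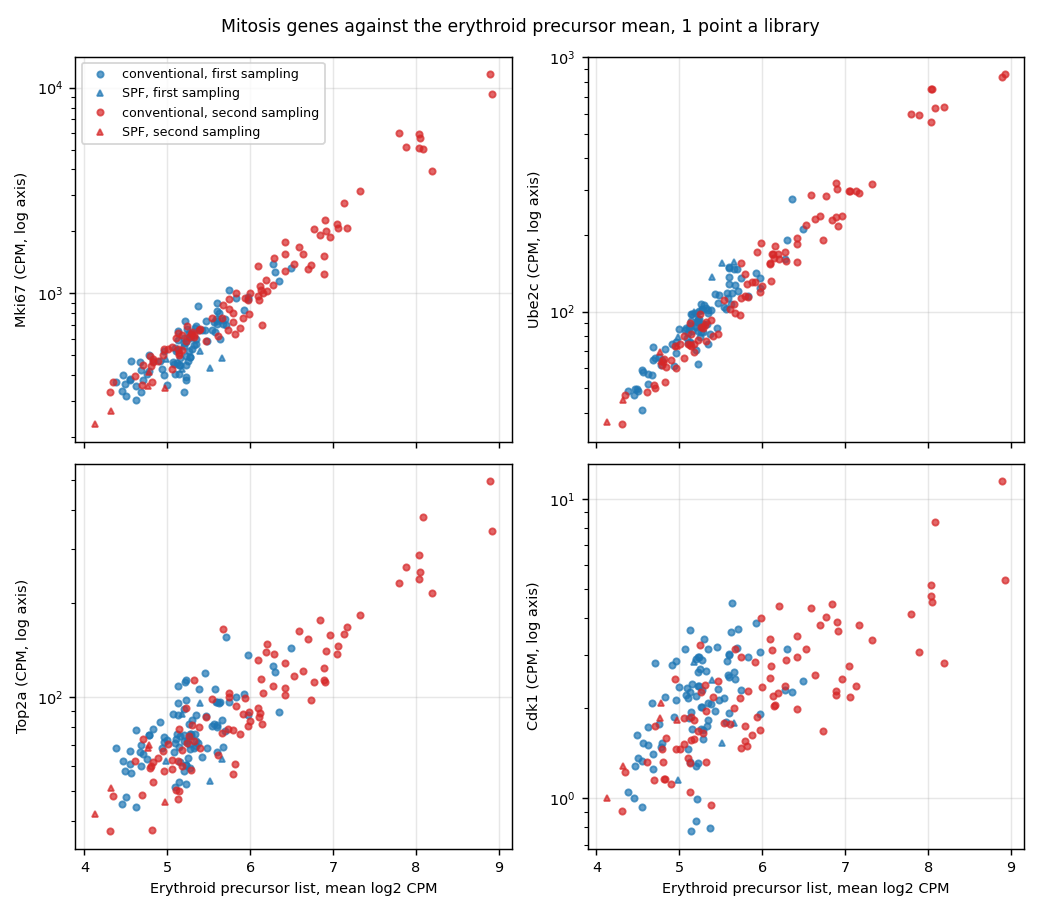
CPM (TMM-scaled, log axis) of Mki67, Ube2c, Top2a and Cdk1 against the mean log2 CPM of the erythroid precursor list, 1 point a library; blue first and red second sampling, triangles SPF. Mki67 and Ube2c rise along the whole range and the 2 libraries near 8.9 on the x axis hold 11631 and 9338 CPM of Mki67, while Cdk1 reaches 11.5 CPM; on library totals the slopes of these 4 genes were smaller and still called higher.

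The neutrophil precursor slope was not called higher for any member with TMM and was lower for 22, against 9.42% and 11.6% of all genes. Slopes were small, from -0.15 ± 0.03 for Spc25 to 0.05 ± 0.11 for Plk1, which was not called. Mki67 was at -0.06 ± 0.02, Top2a at -0.10 ± 0.02 and Smc4 at -0.13 ± 0.02, while Ccna2 (-0.05 ± 0.02), Ube2c (0.01 ± 0.01), Cdk1 (-0.07 ± 0.03) and Ccnb1 (-0.07 ± 0.03) were not called. On library totals 5 members were called higher (Aurkb, Cdc20, Cenpa, Ncapd2 and Racgap1) and 17 lower, against 71.4% and 2.76% of all genes. Within cohorts 1 to 4 alone 3 members were called lower with TMM, at 2.70% of all genes called, and with globin and mitochondrial rRNA shares as covariates 4 were, at 2.35%. Within cohorts 6 to 9 alone edgeR called 0, at 0.11% of all genes, with 18 at an unadjusted p under 0.05. The low counts of this list limit its mean. With the 8 secondary granule genes of later neutrophil precursors in its place Ccna2 (0.11) was called higher and 19 members lower, at 41.7% of all genes called. The erythroid slope was steeper than the neutrophil precursor slope in the same fit for 35 of 36 members with TMM, against 22% of all genes (53.3% in either direction). Because low counts limit the neutrophil precursor mean, its slopes may be too small. This contrast therefore cannot decide which precursors the members follow. The same contrast with the secondary granule list is not reported here. The difference was 0.93 ± 0.03 for Ccna2, 0.86 ± 0.02 for Mki67, 0.57 ± 0.02 for Top2a, 0.48 ± 0.04 for Cdk1 and 0.47 ± 0.04 for Ccnb1. Plk1 was not called at 0.28 ± 0.13 (adjusted p = 0.0602). On library totals 13 members had the steeper erythroid slope and 7 the steeper neutrophil precursor slope, against 6.55% and 78.9% of all genes.

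With both list means in the model, most differences of the members between samplings and with the second-sampling score were no longer positive. Between samplings 1 member was higher, Ccna2 at 0.27 ± 0.05, and 19 were lower, against 21.7% and 22.3% of all genes. Mki67 was not called at 0.05 ± 0.03, while Cdc20 (-0.42 ± 0.12), Ccnb1 (-0.27 ± 0.06), Cdk1 (-0.26 ± 0.07), Ube2c (-0.14 ± 0.03) and Top2a (-0.14 ± 0.04) were lower. Per score unit in the second sampling Ccna2 was higher at 0.16 ± 0.04 and 6 members were lower (Ncapd2, Cenpe, Ndc80, Ncapg, Smc2 and Smc4), against 7.72% and 4.66% of all genes. Ccna2 was also the 1 member called higher against SPF mice on day 44 (0.60 ± 0.18, beside 9.32% of all genes higher and 6.67% lower) and with the score in the first sampling (0.23 ± 0.05, beside 5.15% higher and 2.37% lower). Over the first days 7 members rose and 9 fell, against 26.4% and 26.9% of all genes (53.4% in all). Those that rose were Ccna2 (0.22 ± 0.03 per 10 days), Smc4 (0.13 ± 0.04), Mki67 (0.12 ± 0.02), Nusap1 (0.10 ± 0.03), Cenpe, Kif23 and Cenpf, the 7 that rose without the list means. These fits use TMM and remove what moves with either list mean, whichever list carries it.

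Other cell cycle genes were read from lists that do not overlap the 36. Of 49 further mitosis genes tested, 28 were higher and 3 lower between samplings with TMM (median 0.19), and 3 higher and 37 lower with totals. The 2 most abundant were Cdc25b, a phosphatase that activates Cdk1, at 0.62 ± 0.09 with TMM, and the kinetochore scaffold Knl1 at -0.01 ± 0.07. Of 40 genes of S phase, when DNA is copied, 15 were higher and 10 lower with TMM (median 0.08), and 2 higher and 33 lower with totals. The most abundant were E2f2, a transcription factor of S phase genes, at 1.02 ± 0.11 with TMM, and Pola1, a DNA polymerase subunit, at 0.26 ± 0.06. Of all genes 31.4% were higher and 30.6% lower between samplings with TMM, and the S phase counts lay near these shares. With totals the shares of all genes were 9.19% and 65.6%. Per score unit 18 of the mitosis genes rose and 1 fell, and 14 of the S phase genes rose and 1 fell with TMM. With totals 6 rose and 19 fell, and 4 rose and 21 fell. Among all genes 18.9% rose and 17.7% fell with TMM, and 4.56% and 51.2% with totals. Erythroid slopes with TMM were higher for 42 of 49 and lower for 1, and higher for 31 of 40 and lower for 3, with medians of 0.31 and 0.25 beside 0.33 for the members. On totals they were higher for 14 and lower for 19, and higher for 12 and lower for 13. This slope was higher for 25.2% and lower for 33.6% of all genes with TMM, and for 9.53% and 60.7% on totals.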

How the data were processed

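Whole blood RNA was sequenced as ribosome- and globin-depleted stranded total RNA, per the labels' protocols. The submitters' processing notes name DRAGEN and GRCm39; neither the annotation nor a software version is given in the sources used here. The authors deposited estimated counts and TPM per gene for 190 libraries of 20 groups. The deposited estimated counts were rounded to whole numbers (2.86% of values were not whole), and the deposited TPM served to compare levels between genes and, without a test, medians between samplings. Genes needed a count of 10 in enough libraries and 15 in all (edgeR filterByExpr over the 20 groups), which kept 18192 genes; 79 symbols occur more than once in the table. edgeR 4.0.16 in R 4.3.3 fitted a robust quasi-likelihood model with TMM factors, tests were two-sided, and calls needed an adjusted p (Benjamini-Hochberg, over all genes tested) under 0.05. SE is the size of the log2 difference divided by the square root of F. DESeq2 1.42.0 gave an alternative. The fit was tested on simulated data with 200 changed genes.

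The second against the first sampling used the 180 conventional libraries with cohort as a covariate, the first days 90 libraries, day 16 the 30 libraries of cohort 5 and SPF mice, and day 44 the 50 conventional and 5 SPF libraries. Score slopes had cohort as a covariate. List means are means of log2 CPM with a prior count of 2. The members and lists were chosen with earlier results of these data known, and no list was tested as a set. Named were, per role, the member with the highest level, those with the largest and smallest effect and those called against the majority, with Mki67, Top2a, Cdk1 and Ccnb1 in every group, and the 2 most abundant genes of other lists, of which 1 is not reported here. Other members are named to complete a count and were chosen after their values were seen. Library totals in place of TMM, and the exclusion of libraries over 20% globin, were alternatives chosen after seeing the data. Other alternatives were other normalization, no filter, DESeq2, left-out libraries or cohorts, cohorts of like composition alone, composition covariates and the replicate number as a block. Promoter sequences are from RefSeq.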

Additional observations from a re-analysis of the deposited data

Results flagged for a closer look

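Of 40 group values examined for a library standing apart from its group of up to 10, 2 did, and chance alone gives about 1 in 20. In cohort 8 on day 26, replicate 1 had the highest mean over the 36 genes, 4.10 log2 CPM, set apart from the other libraries of that group. In cohort 8 on day 40, replicate 1 had the highest Mki67, 11.14 log2 CPM, likewise set apart. The change between samplings differed among the 9 cohorts, by the test of the interaction of cohort and sampling in edgeR, for Kif20a (adjusted p = 0.00821), Ccnb2 (0.0185), Kif23 (0.0199), Cdc20 (0.0243), Mki67 (0.0324), Aurkb (0.0364), Smc4 (0.0391) and Cdk1 (0.0445). Of all genes 35.3% were called in that test, a larger share than among the 36 members.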

How the results depend on the processing

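Counts below are members called of 36, and percentages are the share of all genes called in the same fit. Some further shares, among them those of cohort subsets, stand with each comparison above. A count with no share in either place cannot be set against all genes. Second against first sampling (29, at 62.1%): 10 in cohorts 6 to 9 alone and 21 to 30 without 1 cohort. With precursor means as covariates 20 were called (1 higher, 19 lower), at 44.0%. On library totals 32 were called (5 higher, 27 lower), at 74.8%. First-day trend (14, at 52.3%): 9 with globin and mitochondrial rRNA shares as covariates and 8 in libraries of score 0. Cohorts 1 to 4 alone gave 6, cohorts 6 to 9 alone 0, and totals 34, at 63.9%. Against SPF on day 44 (4, at 19.7%): 11 with DESeq2, 7 with globin and mitochondrial rRNA covariates and 11 against cohorts 1 and 3. Precursor covariates gave 1, at 16.0%, and totals 14, at 43.5%. Without 1 SPF replicate 1 to 4 were called. Score in the second sampling (20, at 36.6%): 13 with no filter on low counts and 3 with globin and mitochondrial rRNA covariates. Cohorts 6 to 9 alone gave 0, precursor covariates 7, at 12.4%, and totals 18, at 55.7%. Score in the first (2, at 10.0%): 1 with no filter and 1 with globin and mitochondrial rRNA covariates. Precursor covariates gave 1, at 7.52%, and totals 0, at 0.033%. Neutrophil precursor slope (22, at 21.1%): 4 with globin and mitochondrial rRNA covariates, 3 in cohorts 1 to 4 and 0 in cohorts 6 to 9. The second sampling alone gave 10 and the first alone 8. Difference of slopes (35, at 53.3%): 20 on totals, at 85.5%. The cause was not tested, and subsets of cohorts hold fewer libraries.

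Of the values of named genes under the alternatives (those of the rule and 12 gene and comparison pairs added after their values were seen), 84 changed sign with a call in either fit, and 1643 kept their direction and side of the threshold or were called in neither fit. The sign changed as follows (log2). With precursor covariates, the difference between samplings was -0.057 for Ccnb2, -0.27 for Ccnb1, -0.26 for Cdk1, -0.22 for Aurkb, -0.14 for Ube2c, -0.086 for Cenpf, -0.14 for Birc5, -0.14 for Kif4, -0.047 for Nusap1, -0.21 for Ect2 and -0.14 for Top2a. There the first-day trend was -0.077 for Ube2c. There the second-sampling score slope was -0.074 for Ccnb2, -0.043 for Ccnb1, -0.073 for Cdk1, -0.033 for Ube2c, -0.027 for Birc5, -0.025 for Nusap1, -0.042 for Kif20a, -0.00067 for Kif23, -0.028 for Mki67 and -0.089 for Top2a. On library totals, the difference between samplings was -0.29 for Ccnb1, -0.30 for Cdk1, -0.32 for Aurkb, -0.15 for Cenpf, -0.023 for Birc5, -0.25 for Kif4, -0.10 for Kif23, -0.39 for Ect2, -0.067 for Top2a and -0.38 for Smc4. There the first-day trend was -0.18 for Aurka, -0.15 for Ube2c, -0.084 for Cenpe, -0.089 for Cenpf, -0.018 for Nusap1, -0.087 for Kif23, -0.20 for Ect2, -0.0043 for Mki67, -0.13 for Top2a, -0.16 for Ncapg and -0.074 for Smc4. There the day 44 difference from SPF was -0.57 for Ttk, -0.80 for Ndc80, -0.21 for Kif23, -0.51 for Racgap1 and -0.58 for Smc2. There the second-sampling score slope was -0.0014 for Cdk1, -0.075 for Kif4, -0.010 for Kif20a, -0.048 for Kif23 and -0.14 for Ect2. There the erythroid slope was -0.069 for Ttk, -0.24 for Spc25, -0.061 for Kif11, -0.060 for Kif23, -0.10 for Ect2, -0.13 for Ndc80, -0.17 for Smc2 and -0.23 for Smc4. There the neutrophil precursor slope was 0.090 for Aurkb, 0.094 for Cenpa, 0.021 for Kif23 and 0.11 for Ncapd2. There the difference of slopes was -0.0085 for Cdc20, -0.13 for Cenpa, -0.081 for Kif23 and -0.18 for Smc4. Within cohorts 1 to 4 alone, the first-day trend was 0.017 for Ccnb1. Within cohorts 6 to 9 alone, the first-day trend was 0.077 for Ccnb1, 0.25 for Cdk1, 0.027 for Aurkb, -0.062 for Cenpe, 0.019 for Racgap1, 0.030 for Ncapd2 and -0.22 for Smc4. With globin and mitochondrial rRNA covariates, the first-day trend was 0.0019 for Aurkb, -0.034 for Cenpe, 0.020 for Racgap1 and -0.13 for Smc4. With secondary granule genes as the neutrophil list, the neutrophil precursor slope was 0.11 for Ccna2, 0.018 for Nusap1 and 0.0027 for Kif23.

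The replicate block (replicate number as a factor) gave 22 members called between samplings, 10 for the interaction with cohort, 19 among first days, 14 for the trend, 0 on day 16 and 4 on day 44. These counts are given without the share of all genes called in the same fits. They cannot be set against all genes. Same-numbered libraries deviated together only weakly: of 95 pairs 19 had r over 0.1 (median 0.018), and 14 libraries correlated best with their own number. The number expected by chance was not computed. Such correlations cannot decide whether equal numbers are the same mouse, which the labels do not state. Depth limits Plk1, Cdc20 and the neutrophil precursor genes most.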
